A study of Bos taurus with 9 samples.

Results

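Among the small RNA loci of bovine follicular fluid, the study listed a set as predicted miRNA, that is, loci with a predicted hairpin and no match to a known miRNA. Here the 31 loci of this set that are 24 bases long or shorter were examined. They were chosen only by being on that list and by their length from first to last base, and they are 31 of the 101889 loci in the deposited table. The other 424 predicted loci were 25 to 30 bases long. A separate list of the study holds the known miRNA and homologues of known miRNA.

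The RNA came from extracellular vesicles (EVs) of follicular fluid in cow ovaries. Fluid was pooled by follicle diameter into small (3 to 5 mm), medium (6 to 9 mm) and large (over 9 mm) follicles, with 3 libraries for each size. The libraries keep the numbers of their labels, which are 1, 2 and 4 for small, 5, 6 and 8 for medium and 10, 11 and 12 for large follicles. The ovaries came from an abattoir, no breed, age or treatment of the cows is given, and each pool held fluid of many follicles. The fluid was gathered in 3 independent collections, each of which gave fluid of small, medium and large follicles. The sources used here do not say which libraries share a collection. The tests therefore have no term for it and treat the sizes as unpaired. Total counts on all deposited loci ranged from 8941598 (small 2) to 14664460 (small 1). The floor used here, 3 counts of such a total, corresponds to 2.05e-05% to 3.36e-05%, which covers counting error only.

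A miRNA is cut from a hairpin precursor, first in the nucleus by Drosha and then in the cytoplasm by Dicer, and the mature strand is loaded on an Argonaute protein. The bases near its 5′ end, called the seed, pair with target mRNA, which is then less translated or degraded. Follicular fluid surrounds the oocyte and the granulosa cells, and its EVs carry miRNA and other small RNA. The study proposes EVs as a potential means of communication between these cells. Fragments of longer RNA, such as tRNA, rRNA and small nucleolar RNA, can have the same length as a miRNA, so length alone does not tell them apart. Sequences of the loci were not analysed here, and neither was their position relative to genes. All positions are on the UMD3.1 assembly.

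Of the 31 loci, 4 were 16 bases, 8 were 17 bases, 2 were 18 bases and 1 was 19 bases long. A further 6 were 20 bases, 2 were 21 bases, 1 was 22 bases, 3 were 23 bases and 4 were 24 bases long. The median was 20 bases, and 12 loci were under the 18 bases that the study's methods give as the lower limit for miRNA. They lay on 17 chromosomes, with 8 on chromosome X, and were split between the plus strand (15) and the minus strand (16). The deposited table holds 6893 loci of 24 bases or less, of which 6623 are on neither list of miRNA.

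Abundance was very uneven. The sum of the 9 counts ran from 409 to 91933 for a locus and was 1289 at the median, beside 1212 for the longer predicted loci. For 12 loci the sum was under 1000, for 16 it was at least 1000 and under 10000, and for 3 it was 10000 or more. Counts were not divided by length, which ran from 16 to 24 bases. All 31 had a mean count of at least 100 in at least 1 follicle size, as the study required, but 12 reached it in exactly 1 size, 10 in 2 sizes and 9 in all 3. Small follicles were the single size for 11 of those 12 loci and large follicles for 1. A locus that entered the list through small follicles alone had to be lower elsewhere, so counts over the 31 loci below describe a list that the filter shaped and give no support on their own. The same holds for the tests against small follicles of each of these 11 loci, which are given as values only, and for tests of the 1 locus that entered through large follicles alone.

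The most abundant was a 17-base locus on the plus strand at chr26:33523680-33523696, which held 43.8% of all counts on the 31 loci. Its counts were 7140, 5403 and 5811 in small follicles, 7726, 22090 and 10412 in medium, and 13728, 8179 and 11444 in large ones. As a share of all counts of a library this was 0.0554% ± 0.00605 (SD, n = 3) in small follicles, 0.117% ± 0.0647 in medium and 0.106% ± 0.0314 in large ones. Medium 6 stood far above every other library at this locus.

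The next was a 20-base locus on the plus strand at chr21:60864954-60864973, with 24.7% of the counts on the 31 loci. It had 21507, 4517 and 11713 counts in small follicles, 5902, 1646 and 3977 in medium, and 570, 412 and 1488 in large ones. Every large library was below every medium library, while small 2 was below medium 5. The third, a 16-base locus on the plus strand at chr18:22622903-22622918, had 10694, 966 and 5523 counts in small follicles, 3070, 437 and 1623 in medium, and 29, 23 and 468 in large ones. Here small 2 was below medium 5 and medium 8, and large 12 was above medium 6.

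These 3 loci held 75.1% ± 4.8 (SD, n = 3) of the counts on the 31 loci in small follicles, 80.5% ± 6.05 in medium and 82.2% ± 3.53 in large ones. The makeup differed between sizes. The chromosome 21 locus held 43.6%, 29.1% and 38.3% of the counts on the 31 loci in the small libraries and 3.41%, 3.76% and 9.11% in the large ones, while the chromosome 26 locus held 14.5%, 34.8% and 19.0% and then 82.1%, 74.7% and 70.1%. In small 2 the chromosome 26 locus was the larger of the pair, and in small 1 and small 4 the chromosome 21 locus was. The 31 loci together took 0.270% ± 0.0856 of all counts in small follicles, 0.205% ± 0.0359 in medium and 0.139% ± 0.0323 in large ones. Libraries of neighbouring sizes overlapped: small 2 (0.174%) was below medium 6 (0.241%) and medium 8 (0.204%), and large 10 (0.172%) was above medium 5 (0.169%).

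The loci are given next by length. The share of the 19 loci of 18 to 24 bases was 0.141% ± 0.0473 in small follicles, 0.0527% ± 0.0174 in medium and 0.0242% ± 0.00275 in large ones, with no overlap between any sizes. The share of the 12 loci under 18 bases was 0.129% ± 0.0386, 0.152% ± 0.0521 and 0.115% ± 0.0321, and its ranges overlapped in all 3 sizes, but this sum is mostly the chromosome 26 locus. Without it the other 11 shorter loci held 0.0739% ± 0.0436, 0.035% ± 0.0135 and 0.00893% ± 0.00497, with every large library below the small and medium ones and an overlap between small and medium. The 424 longer predicted loci went the other way, from 0.612% ± 0.0436 in small to 1.41% ± 0.245 in medium and 1.84% ± 0.261 in large follicles. As a result, the 31 loci were 30.4% ± 8.36 of the counts on predicted loci in small follicles, 12.9% ± 3.23 in medium and 7.15% ± 1.84 in large ones. No test was made of these sums, because the loci were chosen with results of these data known.

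**Figure D1:**
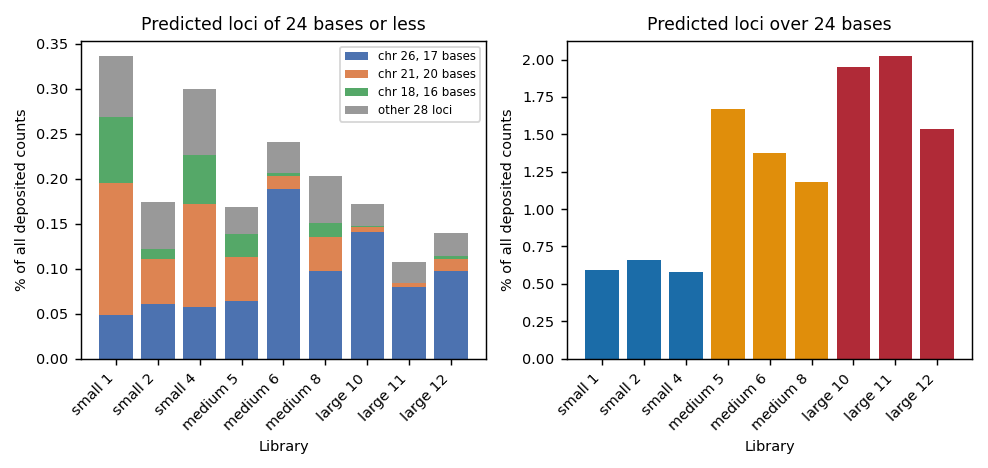
Share of all deposited counts in each of the 9 libraries (y axis, %, starting at 0) on the 31 predicted loci of 24 bases or less, stacked by locus (left), and on the 424 longer predicted loci (right, bars coloured by follicle size). The chromosome 21 and 18 loci take less in large than in small follicles, the chromosome 26 locus takes more, and the mean of the longer loci is 0.612% in small and 1.84% in large follicles.

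Libraries of 1 size were not alike. Known and homologous miRNA made up 23.1%, 14.1% and 26.9% of all counts in small follicles, 3.88%, 3.75% and 11.2% in medium, and 1.58%, 1.43% and 5.65% in large ones, so medium 8 and large 12 stood apart from the others of their size. Among the 31 loci, medium 8 had the highest normalised count of its size at 21, large 12 at 19 and small 4 at 17. Small 2 was the lowest of its size at 21, and small 4 at 1. Markers of other sources differed between libraries as well. The blood list (bta-miR-451, bta-miR-486, bta-miR-142-5p and bta-miR-150) summed to 181, 327 and 133 CPM (counts scaled to 1000000 counts of a library) in small follicles, 69.6, 110 and 171 in medium, and 132, 145 and 750 in large ones. Its most abundant member was bta-miR-486, an erythroid miRNA, at 611 CPM in large 12, and no member was at 0 in any library. Within small follicles the members did not share the order of the sum. There bta-miR-486 and bta-miR-451 were highest in small 2, as was the sum. By contrast, bta-miR-142-5p (52.9, 21.4 and 65.5 CPM) and bta-miR-150 (1.84, 0.895 and 2.46 CPM) were lowest in small 2. Within large follicles every member was highest in large 12.

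The gonadal miR-202 pair was present in every library. Both strands, bta-miR-202 and chi-miR-202-3p, summed to 3870, 2478 and 5151 CPM in small follicles, 695, 693 and 2947 in medium, and 213, 159 and 1658 in large ones. Again medium 8 and large 12 were the highest of their size. What part these differences between libraries have in the values below was not tested. Whether a lower count reflects fewer vesicles of a source or less RNA per vesicle cannot be told apart in pooled fluid.

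For the comparison of sizes, counts were scaled by TMM over all predicted loci, long and short, and a normalised count is a count per 1000000 counts on these loci after that scaling. Changes are log2 fold changes with their standard error (SE), tested by edgeR's quasi-likelihood test with Benjamini-Hochberg adjustment over all predicted loci (FDR), and a locus is called at an FDR under 0.05. The comparison asks which small RNA of the EVs differ as the follicle grows. In large versus small follicles 20 of the 31 loci were lower and 0 were higher, where 5.27% of all predicted loci were called lower. In medium versus small follicles 10 were lower (2.2% of all predicted loci), and in large versus medium follicles 6 were lower (1.32%). All predicted loci called in the latter comparisons were among the 31, and 4 longer loci were called between large and small follicles.

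With this scaling none of the 31 loci was called higher in any comparison by edgeR's quasi-likelihood test or its exact test, and none was higher at an unadjusted p under 0.05. DESeq2 with its own size factors also called none higher. At that p 24 of the 31 loci were lower in large versus small, 20 in medium versus small and 14 in large versus medium follicles, where 12.5%, 6.81% and 7.25% of all predicted loci passed in either direction. The median log2 fold change of the 31 loci was -3.07 in large versus small, -2.07 in medium versus small and -1.42 in large versus medium follicles, beside 0.01, 0.00 and 0.00 for all predicted loci. The libraries of the pair did not overlap, with the larger size lower, at 25 loci in large versus small (11.9% of all predicted loci), 20 in medium versus small (8.79%) and 13 in large versus medium follicles (6.37%). The larger size was the higher one without overlap at 0 of the 31 (7.47%, 3.74% and 7.47% of all predicted loci). Of the 20 loci lower in large versus small follicles, 11 were those with a mean of 100 in small follicles alone, 3 had that mean in 2 sizes and 6 had it in all 3. By length, 6 were under 18 bases and 14 were of 18 to 24 bases.

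These counts depended on single libraries. In large versus small follicles 13 loci were called without small 4 and 10 without large 11. In medium versus small follicles 5 were called without small 1, without small 4 or without medium 6, 6 without medium 5, and 19 without medium 8. In large versus medium follicles 0 were called without small 1, small 4, medium 6 or large 11. In those fits 12 to 15 loci had an unadjusted p under 0.05 with the larger size lower. For fits that left out a library, the share of all predicted loci, called or at that p, is not given here. The counts of such fits therefore describe the 31 loci only. In a fit of all 85601 loci passing the low-count filter, 13 of the 31 were lower in large versus small (5.63% of loci tested). In medium versus small follicles 3 were lower (1.45%), and in large versus medium follicles 0 (0%). In the last comparison 13 had an unadjusted p under 0.05, for which the share of all loci is not given. None of the 31 was higher in that fit (0.231%, 0.0105% and 0% of loci tested). Sizes of change moved as well: without large 12, 12 of the 20 fold changes called in large versus small follicles became more than 1.5 times larger.

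Scaling changed the picture for part of the loci. TMM sets the longer predicted loci, which are the majority, to no change. When libraries were scaled by the total of all deposited counts, the median log2 fold change of all predicted loci rose by 1.84 in large versus small, 1.26 in medium versus small and 0.58 in large versus medium follicles. Then 19 of the 31 loci were lower and 6 higher in large versus small follicles, where 5.05% and 92.7% of all predicted loci were. These 6 were the loci on chromosomes 15, 26 and 28 and those at chr11:87082241-87082258, chr13:78811646-78811669 and chr21:42502545-42502560, none of which was called under TMM over the predicted loci. In medium versus small follicles 15 were lower and 8 higher (3.96% and 93.4%), and in large versus medium follicles 15 were lower and 0 higher (3.52% and 1.54%). With TMM over both lists, predicted and known, 23 were lower and 3 higher in large versus small follicles (5.93% and 90.3% of all predicted loci), and 19 lower and 4 higher in medium versus small follicles (4.84% and 89.7%). The 3 were at chr15:65493553-65493569 (log2 fold change 0.97, FDR = 0.00654), chr13:78811646-78811669 (1.25, FDR = 0.0184) and chr21:42502545-42502560 (2.02, FDR = 0.00101). The last reached a mean of 100 in large follicles alone, so its higher value there was fixed by the filter. A lower value under TMM over the predicted loci is therefore a value relative to the longer predicted loci.

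**Figure D2:**
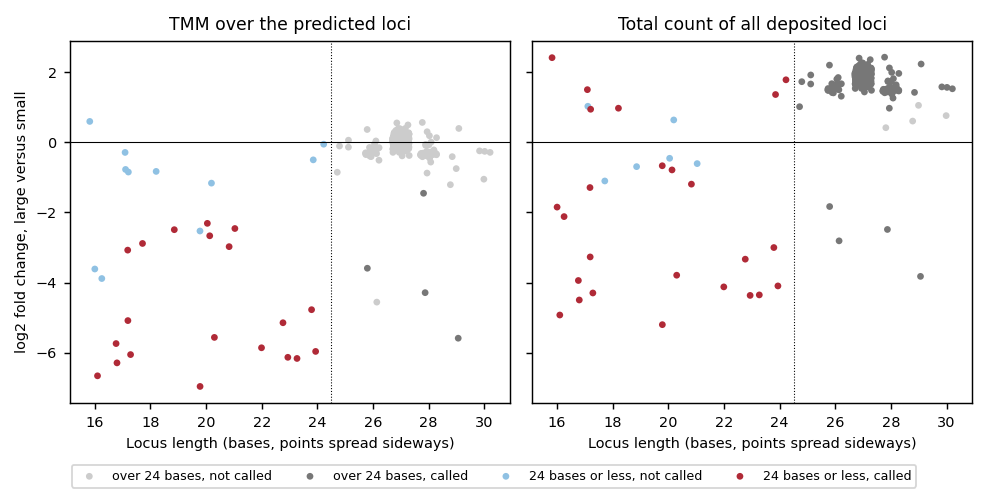
Large versus small log2 fold change (y axis) against locus length in bases (x axis, points spread sideways so that they can be seen) for all predicted loci, scaled by TMM over these loci (left) or by the total of all deposited counts (right). Left of the dotted line, 20 of 31 loci are called lower under TMM, and under total count 19 are lower and 6 higher while most of the longer loci lie above 0.

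In 6 loci (1.32% of all predicted loci) abundance fell at each step, first to medium and then to large follicles, with all 3 comparisons called. Of these, 4 reached the mean of 100 in small follicles alone (the 23-base loci on chromosomes 8 and 27, chr7:20756731-20756752 and chr7:64776449-64776465), so the filter fixed that they were lower than small follicles elsewhere. The 20-base locus on the minus strand at chrX:30338371-30338390 was the most abundant of them. It had normalised counts of 15164, 11068 and 17054 in small follicles, 650, 1074 and 2434 in medium, and 68.3, 32.6 and 247 in large ones. The sizes did not overlap. The log2 fold change was -3.39 (SE 0.64, FDR = 0.0169) in medium versus small and -3.57 (SE 0.67, FDR = 0.0288) in large versus medium follicles, so each step was of about the same size. Without medium 8 these values were -4.07 and -2.89, and without large 12 the second was -4.79. Each of these step calls passed in 5 of the 9 fits that left out a library, with FDR up to 0.116 and 0.181. Fitted with all deposited loci, the steps had FDR of 0.0775 and 0.41.

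The 17-base locus at chr8:89663122-89663138 (minus strand) had normalised counts of 9860, 3991 and 10295 in small follicles, 1277, 752 and 877 in medium, and 255, 153 and 305 in large ones. Its sizes did not overlap either. The first step was a log2 fold change of -3.05 (SE 0.40, FDR = 0.00174) and the second one of -2.03 (SE 0.39, FDR = 0.0292). The first call passed in all 9 fits that left out a library and the second in 4, with FDR up to 0.0205 and 0.181. Fitted with all deposited loci, the steps had FDR of 0.0242 and 0.525. In large versus small follicles the locus was 33.8-fold lower, with an FDR of 0.000846 at most when any 1 library was left out.

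A 23-base locus on chromosome 8 and one on chromosome 27 moved alike. At chr8:111841867-111841889 (minus strand) the raw counts were 304, 150 and 182 in small follicles, 37, 54 and 55 in medium, and 4, 9 and 16 in large ones. At chr27:27255989-27256011 (plus strand) they were 306, 126 and 183, then 50, 46 and 51, then 4, 2 and 22. The 9 counts of the pair did not differ beyond sampling noise (chi-square p = 0.332), and both were close to the counts of the known miRNA bta-miR-2284z at chr5:43233821-43233843, which were 305, 111 and 179, then 49, 51 and 66, then 4, 3 and 14 (chi-square p = 0.228 and 0.82). In large versus small follicles the log2 fold change was -6.16 (SE 0.48, FDR = 1.7e-05) for the chromosome 8 locus and -6.13 (SE 0.59, FDR = 5.39e-05) for the chromosome 27 locus, the latter -7.69 without large 12. Both loci entered the list through small follicles alone, so the filter fixed the direction and these tests are given as values only. Whether the loci of the pair are separate observations was not tested. The treatment of reads with more than 1 matching place is not given in the sources used here.

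The remaining pair of the 6 was rare. The 17-base locus at chr7:64776449-64776465 (plus strand) had 247, 88 and 113 raw counts in small follicles, 41, 36 and 39 in medium, and 1, 4 and 13 in large ones. The 22-base locus at chr7:20756731-20756752 (plus strand) had 154, 154 and 123, then 47, 64 and 57, then 1, 3 and 21. In large 10 each stood at 1 count, under the floor of 3 counts, and large 12 was the highest large library at both. Both entered the list through small follicles alone, so the filter fixed the direction and tests against small follicles are given as values only. The large versus small log2 fold change was -6.28 (SE 0.49, FDR = 1.7e-05) for the first and -5.85 (SE 0.49, FDR = 2.17e-05) for the second, and without large 12 these were -7.52 and -7.80.

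The count of 6 was itself unstable. Without small 1, small 4, medium 6 or large 11 no locus was called in all 3 comparisons, since large versus medium follicles then had no call, and without medium 5 there were 3. At the 2 of these loci that did not enter the list through small follicles alone, on chromosome X and at chr8:89663122-89663138, the call in large versus small follicles held whichever library was left out, with FDR of 0.00459 or less.

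**Figure D3:**
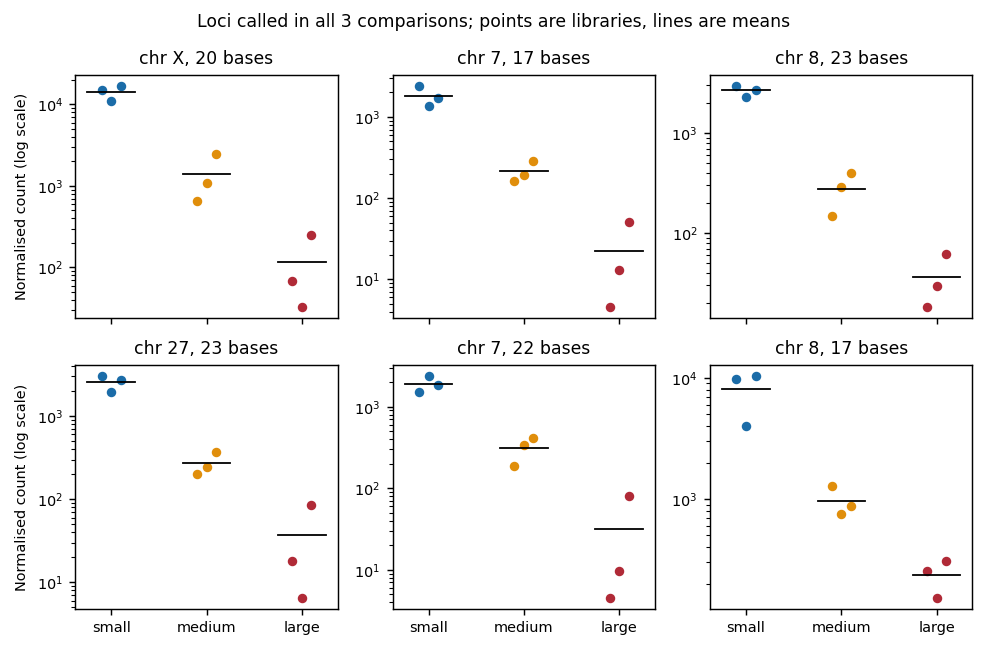
Normalised counts (y axis, log scale) of the 6 loci called in all 3 comparisons, by follicle size (x axis), with 1 point per library and a line at the mean of 3 libraries. At each locus the points of small follicles lie above all medium points, and these above all large points.

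Another 4 loci were lower in both medium and large than in small follicles without a call between medium and large follicles. None of the longer predicted loci was called in medium versus small follicles, where 2.2% of all predicted loci were called lower. The 20-base chromosome 21 locus had normalised counts of 211637, 69337 and 175526 in small follicles, 23403, 8840 and 28815 in medium, and 2597, 1344 and 5745 in large ones, with no overlap between sizes. It was 47.1-fold lower in large versus small (log2 fold change -5.56, SE 0.75, FDR = 0.000713) and just passed in medium versus small follicles (log2 fold change -2.90, FDR = 0.0497). Without large 12 the former was -6.27. The 17-base locus at chr9:94314513-94314529 (minus strand) had normalised counts of 25211, 6524 and 14116 in small follicles, 2466, 789 and 2246 in medium, and 228, 62.0 and 405 in large ones, and was lower by a log2 fold change of -6.05 (SE 0.77, FDR = 0.000505) in large versus small follicles (-6.75 without large 12) and -3.06 (FDR = 0.0456) in medium versus small follicles. The medium versus small call of both loci passed in 4 of the 9 fits that left out a library, with FDR up to 0.193 on chromosome 21 and 0.183 on chromosome 9. The remaining pair, at chrX:29130246-29130269 and chrX:2676228-2676250, is described below. Both of these loci entered the list through small follicles alone, so the filter fixed that they were lower than small follicles elsewhere. The count of 4 therefore rests in part on the filter.

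The 4 loci of 24 bases, at the length limit, did not share a pattern. The pair given first entered the list through small follicles alone, so the filter fixed that it was lower than small follicles elsewhere. Tests of this pair against small follicles are given as values only. At chrX:29130246-29130269 (plus strand, the rarest of the 31) the raw counts were 144, 58 and 125 in small follicles, 28, 9 and 28 in medium, and 7, 8 and 2 in large ones, a log2 fold change of -5.96 (SE 0.64, FDR = 0.000131) in large versus small follicles. At chr16:71150568-71150591 (plus strand) they were 281, 169 and 369, then 26, 26 and 168, then 19, 9 and 73, a log2 fold change of -4.77 (SE 1.09, FDR = 0.0254), which missed the threshold in 2 of the 9 fits that left out a library (FDR up to 0.12) and was -5.97 without large 12.

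The remaining pair of 24 bases was not called. At chr13:78811646-78811669 (minus strand) the normalised counts were 1761, 1397 and 929 in small follicles, 1693, 1713 and 1065 in medium, and 1663, 1289 and 985 in large ones, which overlapped (log2 fold change -0.06, SE 0.37, FDR = 0.974). At chr28:39357758-39357781 (minus strand) the log2 fold change was -0.50 (SE 0.38, FDR = 0.576). Just outside the limit, the 4 predicted loci of 25 bases had summed counts of 650 to 1008 and large versus small log2 fold changes of -0.85 to 0.06.

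The remaining called loci differed in the size of their fall between small and large follicles. The chromosome 18 locus of 16 bases was lower by a log2 fold change of -6.65, with a wide error (SE 1.34, FDR = 0.014), and it missed the threshold in 1 of the 9 fits that left out a library (FDR = 0.0604). Without large 12 it was -9.36, so this 1 library moved its size most among the called loci. A 17-base locus at chr20:55442871-55442887 (minus strand) was lower by -5.73 (SE 0.95, FDR = 0.00412), and by -6.99 without large 12. It entered the list through small follicles alone, so the filter fixed this direction, and the test is given as a value only. A 17-base locus at chr13:13589076-13589092 (minus strand), with normalised counts of 5442, 2533 and 7703 in small and 611, 264 and 988 in large follicles, was lower by -3.07 (SE 0.64, FDR = 0.016). It passed in 7 of the 9 fits that left out a library (FDR up to 0.0831) and had an FDR of 0.0512 when fitted with all deposited loci.

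Smaller falls were seen at chr18:58243447-58243467 (21 bases, log2 fold change -2.97, FDR = 0.0187), at chr4:113198367-113198384 (18 bases, -2.88, FDR = 0.0183) and at chrX:144087437-144087455 (19 bases, -2.49, FDR = 0.0296). The last had 129, 129 and 147 raw counts in small follicles, 27, 51 and 144 in medium, and 65, 71 and 112 in large ones, and the groups did not overlap in normalised counts of large and small libraries. Without large 12 the chromosome 18 locus was at -3.64 and the chromosome 4 locus at -3.76. These 3 calls were lost in 4 or 5 of the 9 fits that left out a library. All 3 loci entered the list through small follicles alone, so the filter fixed their direction, and their tests are given as values only. Under total-count scaling the chromosome 4 and X loci had FDR of 0.065 and 0.189.

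In 11 loci large versus small follicles did not pass. The most abundant locus of all, on chromosome 26, had normalised counts of 70260, 82937 and 87081 in small follicles, 30636, 118632 and 75439 in medium, and 62546, 26690 and 44185 in large ones. All large libraries were below all small libraries, with a log2 fold change of -0.85 (SE 0.50, FDR = 0.43), and it was higher in large follicles by 0.94 (FDR = 0.0024) under total-count scaling. Thus the most abundant of the 31 loci was one whose direction turned with the scaling.

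A pair of loci of 16 bases, at chr11:72567808-72567823 (plus strand) and chr7:44900586-44900601 (minus strand), varied more within a size than most; they were picked out after their values were seen. The first had 78, 13 and 419 raw counts in small follicles, 176, 351 and 766 in medium, and 12, 3 and 110 in large ones, and the second 101, 15 and 402, then 186, 319 and 686, then 16, 5 and 130. Their log2 fold changes of -3.88 (SE 1.44) and -3.61 (SE 1.34) had an FDR of 0.259 each. Both passed as lower under 4 other scalings (total-count scaling, FDR = 5.37e-05 and 0.000375) and without large 12, at -6.25 and -5.78 (FDR = 0.0417 and 0.0416). Without small 4 they were -1.58 and -1.65 (FDR = 0.607 and 0.566). Medium follicles were the highest size in raw counts at both loci.

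The other loci without a call had smaller fold changes. They include the chromosome X locus of the tandem group described next and the pair of 24 bases above. At other loci the large versus small log2 fold change was -1.16 at chr12:38214940-38214959, -0.83 at chr11:87082241-87082258, -0.77 at chr17:74211767-74211783 and -0.29 at chr15:65493553-65493569. The chromosome 12 locus passed as lower without large 10 (-1.73, FDR = 0.0109). The locus at chr11:87082241-87082258 passed as lower when just the 2 sizes were fitted (-0.85, FDR = 0.0289). The single locus with a higher fitted value was the 16-base locus at chr21:42502545-42502560 (plus strand), with 46, 0 and 39 raw counts in small follicles, 71, 12 and 82 in medium, and 169, 87 and 138 in large ones. Its log2 fold change was 0.59 (SE 0.93, FDR = 0.807), and it was the only one of the 31 with an empty library and the only one that reached a mean of 100 in large follicles alone.

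**Figure D4:**
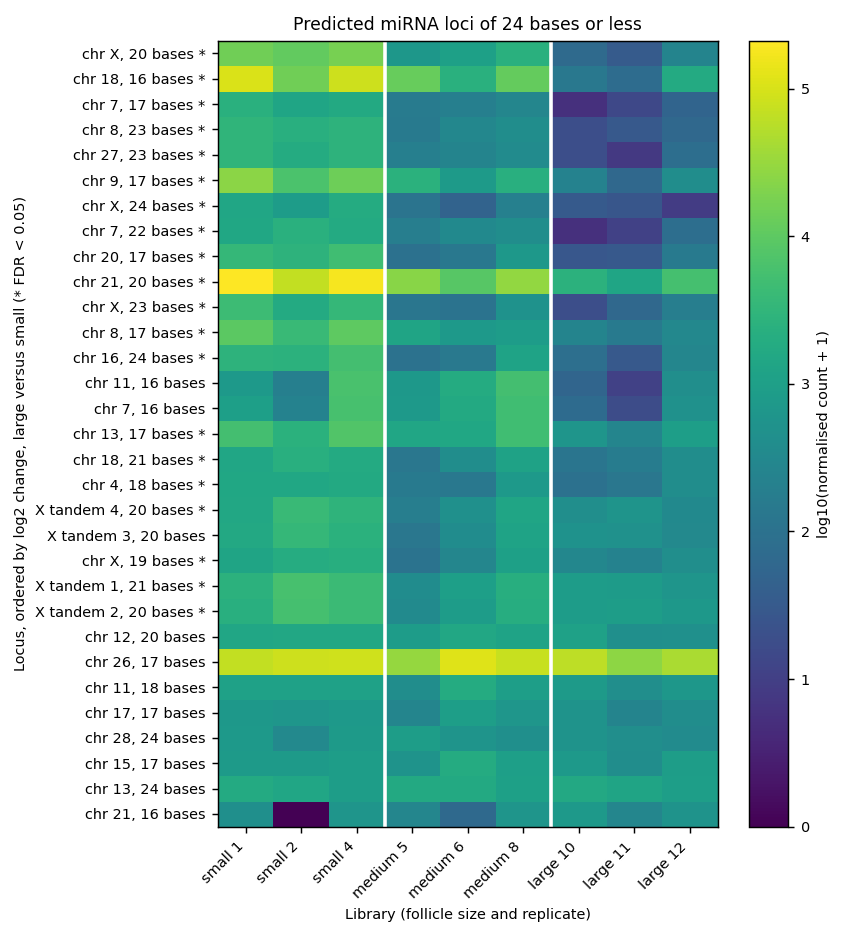
Normalised count of each of the 31 loci (rows, named by chromosome and length and ordered by log2 change in large versus small follicles) in each of the 9 libraries (columns), as log10 of the normalised count plus 1. An asterisk marks the 20 loci with an FDR under 0.05, and the rows at the bottom, among them the abundant chromosome 26 locus, show similar colours in all 3 sizes.

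Known miRNA next to the 31 loci were rare. Within 100 bases on the same strand, 1 of the 31 had a known or homologous miRNA, 9 had any deposited locus and 22 had none. No locus had a deposited locus on the opposite strand or a longer predicted locus within this distance, and within 10 kb the number with a known or homologous miRNA on the same strand was still 1. Both arms of a hairpin can give a mature miRNA, and such arms lie close together on 1 strand.

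The single pair was the 23-base locus at chrX:2676228-2676250 (plus strand) and bta-miR-2284w, a member of a large family of ruminant miRNA, at chrX:2676193-2676213, with 14 bases between them. The predicted locus, downstream of the known one, had 446, 120 and 235 raw counts in small follicles, 31, 20 and 72 in medium, and 4, 19 and 50 in large ones. bta-miR-2284w had 189, 82 and 156 in small follicles, 31, 27 and 67 in medium, and 2, 1 and 10 in large ones. In raw counts both were highest in small follicles, but they parted in medium follicles, where the counts of the pair were about equal. Scaled over the known and homologous loci, bta-miR-2284w was about the same in small and medium follicles, as given below.

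As a log2 ratio of predicted to known count, with 0.5 added to each, the pair gave 0.79 ± 0.39 (SD, n = 3) in small follicles, -0.11 ± 0.28 in medium and 2.27 ± 1.43 in large ones. The ratio is formed within a library, so it does not depend on scaling between libraries. In every small library the predicted locus held the larger part of the pair, from 59.4% to 70.2%, against 42.6% to 51.8% in medium follicles. In large follicles the share was 66.7%, 95% and 83.3%, which rests on 2, 1 and 10 counts of the known miRNA.

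Fitted within its own set, the predicted locus was lower by a log2 fold change of -3.72 (SE 0.83, FDR = 0.0497) in medium versus small and -5.14 (SE 0.89, FDR = 0.00524) in large versus small follicles. The predicted locus entered the list through small follicles alone, so the filter fixed its direction, and both tests are given as values only. In a fit of all known and homologous loci, scaled over those loci, bta-miR-2284w had -0.08 (SE 0.41, FDR = 0.93) in medium versus small and -2.18 (SE 0.51, FDR = 0.00678) in large versus small follicles. These sets were scaled separately, so only the ratio above sets them side by side. With 1 library left out, the predicted locus missed the threshold in 4 of 9 fits in medium versus small and in 1 of 9 in large versus small follicles. Its fold change was -4.81 without medium 8 in the former and -6.28 without large 12 in the latter.

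The clearest arrangement of neighbours was on the minus strand of chromosome X, where 4 of the 31 loci followed each other in tandem. They were chrX:62078661-62078681 (21 bases), chrX:62079641-62079660, chrX:62080685-62080704 and chrX:62081821-62081840 (20 bases each). Their starts were 980, 1044 and 1136 bases apart. Each had a 36-base locus 8 bases upstream and a 44-base locus 41 or 42 bases downstream, and further upstream, at 65 to 70 bases, one of 24 to 29 bases. The third and the fourth of the row also had a 19-base locus 11 bases downstream, which the first and the second lacked.

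The 44-base and 36-base flanking loci were far more abundant. The 44-base loci had summed counts from 22650 to 23277 and the 36-base loci from 14277 to 14465, while the 4 predicted loci had 2143, 2083, 1186 and 1289. A predicted locus was thus 4.55%, 4.44%, 2.45% and 2.66% of the counts within 100 bases of it. The 19-base loci beside the third and the fourth had 2901 and 2874, and in large 11 the predicted locus exceeded them, with 153 counts against 79 and 171 against 75. In small follicles the first had 266, 383 and 291 raw counts, the second 238, 373 and 280, the next 163, 231 and 168 and the last 157, 264 and 191. The first and second had equal counts within sampling noise (chi-square p = 0.621), and so had the third and the fourth (chi-square p = 0.258).

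In medium follicles the first of the row had 97, 188 and 308 raw counts and in large follicles 197, 258 and 155. Medium 8 was above 2 of the 3 small libraries in raw counts, and small 2 was the highest small library, unlike at most of the 31 loci. Relative to the other predicted loci, the first was lower in large versus small follicles by a log2 fold change of -2.46 (SE 0.55, FDR = 0.0215), the second by -2.31 (FDR = 0.0303) and the fourth by -2.66 (FDR = 0.0342), while the third missed the threshold (-2.53, FDR = 0.0607). Each of these calls was lost in 4 to 6 of the 9 fits that left out a library, and under total-count scaling the first and second had FDR of 0.195 and 0.333. Under that scaling the third was lower by -0.67 (FDR = 0.018) and the fourth by -0.79 (FDR = 0.00556), and the third passed in 8 of its 12 alternatives.

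Ratios within a library set the row against its flanks without any scaling between libraries. The first of the row was 5.32%, 6.33% and 8.15% of its sum with the 44-base neighbour in small follicles, 8.65%, 10.4% and 9.56% in medium, and 16.7%, 21.3% and 6.86% in large ones. Large 12 was again the library that differed from the rest of its size. The log2 ratio was -3.84 ± 0.33 (SD, n = 3), -3.24 ± 0.15 and -2.65 ± 0.98, so the ranges of large and small follicles overlapped through large 12. Against the 19-base neighbour, which the third and the fourth of the row had, small and large libraries did not overlap. The log2 ratio of the fourth was -2.41 to -1.45 in small, -1.20 to -0.24 in medium and -0.34 to 1.18 in large libraries, and that of the third was -2.34 to -1.64, -1.93 to -0.31 and -0.31 to 0.95.

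The other loci with neighbours were each different. The 21-base locus at chr18:58243447-58243467 (plus strand) directly followed a 61-base locus, with 0 bases between them, and was 0.847% of the counts within 100 bases. The neighbours had 9825, 26657 and 64962 counts against its 867. Its log2 ratio to the 61-base locus was -3.66 ± 0.26 in small follicles, -3.13 ± 0.50 in medium and -3.34 ± 0.43 in large ones. Against this neighbour small and medium libraries were just apart, and large ones overlapped both. Against the 37-base and the 24-base neighbour small and medium libraries overlapped. There the mean log2 ratio was -4.94 and -6.21 in small, -4.37 and -5.79 in medium and -5.21 and -6.39 in large follicles. The 17-base locus at chr15:65493553-65493569 (plus strand) had a 26-base locus 11 bases downstream, with 67 counts in all. It held 86.3%, 67.1% and 78.2% of the counts of the pair in small follicles, 99.3%, 97.8% and 99.3% in medium, and 100%, 100% and 99.2% in large ones. The small libraries were below all the others.

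The 17-base chromosome 8 locus at chr8:89663122-89663138 lay 11 bases upstream of a 16-base locus at chr8:89663095-89663110, which is on neither list and had 23237 counts. The predicted locus was 8.47%, 21.6% and 10.7% of the pair in small follicles, 9.55%, 23.0% and 7.09% in medium, and 60.9%, 61.8% and 12.7% in large ones. The 16-base chromosome 18 locus had a 35-base locus 11 bases upstream. It was 99.6%, 94.2% and 99.7% of that pair in small but 17.7%, 16.0% and 88.1% in large follicles, where large 12 stood apart again.

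Many of the 31 loci had a counterpart elsewhere in the genome with nearly the same counts. A locus was called equal when its length was within 1 base and a chi-square test of the 9 counts gave p over 0.001; 19 of the 31 had at least 1 such locus and 12 had none. At low counts this limit is weak: the 17-base locus at chr17:74211767-74211783, with 798 counts, matched 28 loci, and the chromosome 27 locus also passed against bta-miR-199a-5p, a miRNA of another family (chi-square p = 0.00119). At high counts the same limit is strict, since the test then resolves small differences.

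The chromosome 26 locus, with 91933 counts, had 2 equals on chromosomes 7 and 8, with 92296 and 91794 counts (chi-square p = 0.459 and 0.187). The chromosome 18 locus, with 22833, had 3 equals on other chromosomes with 23106 to 23237, and 1 of them was the 16-base neighbour on chromosome 8 just described. The chromosome 9 locus, with 5182, had 5 equals with 5288 to 5432, and the pair of 16-base loci on chromosomes 11 and 7 belonged to 6 loci with 1811 to 1968 each. In these 4 groups the loci on the predicted list numbered 1, 1, 1 and 2, and the rest were on neither list. Summed over equal loci, the counts were 276023, 92357, 32008 and 11356. Whether reads of 1 sequence were shared among these places was not tested. The 20-base loci on chromosome 21 and at chrX:30338371-30338390 had no equal.

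**Figure D5:**
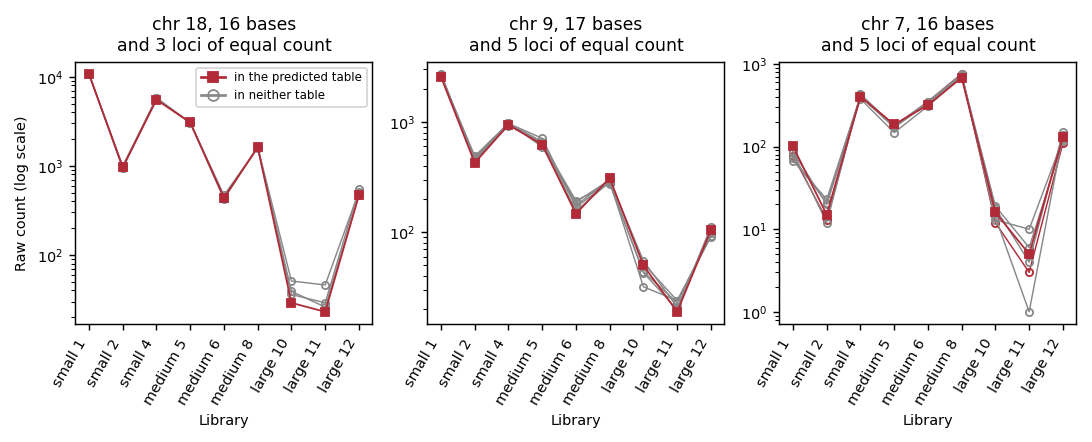
Raw counts (y axis, log scale) in the 9 libraries (x axis) of the chromosome 18, 9 and 7 loci on the predicted list (filled squares) and of the loci elsewhere in the genome with equal counts (open circles); the third panel holds 2 loci of the predicted list, on chromosomes 7 and 11. The lines of a panel lie close to each other, and the spread is widest at the lowest counts, as in large 11.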

How the data were processed

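Small RNA of follicular fluid EVs was sequenced in 9 libraries. Per the labels and the study's methods, the authors removed adapters, mapped reads with BWA 0.7.5a to UMD3.1, merged mapped reads into loci and deposited raw counts per locus without normalization. How reads mapping to several places were assigned is not given in the sources used here. EV RNA was isolated after ultracentrifugation and filtration, and library preparation used PCR without stated molecular identifiers.

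The members and lists were chosen with earlier results of these data known. Groups came from the labels. Nothing in the labels ties samples to a collection, so p-values measure the spread between these pools. Counts of all predicted loci were fitted by edgeR 4.0.16 under R 4.3.3 (TMM, 3 sizes, quasi-likelihood test, FDR under 0.05), and the script was tested on simulated data. DESeq2 1.42.0 was an alternative. Neighbours, ratios (0.5 added) and chi-square tests used Python 3.11.15 with scipy 1.17.1. The loci named in the text are those with a known neighbour within 100 bases, called, among the 5 most abundant, in a row of equal counts within 10 kb, or 24 bases long; others named are stated to be outside this rule or complete the account of the 31. Other scalings, tests, filters and left-out libraries were tried. The authors' own comparisons were not used.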

Additional observations from a re-analysis of the deposited data

How the results depend on the processing

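No locus called in a comparison changed sign under any of its 751 alternative values, but 121 of these missed the threshold. The kept sign gives no support. Called log2 fold changes in large versus small follicles ran from -6.96 to -2.31. Scaling by all deposited counts moved the median of all predicted loci by 1.84, too little to turn them. Of these 20 loci, 11 reached the mean of 100 in small follicles alone, so the filter fixed their direction. Fitted with all deposited loci, 13 loci were called in large versus small, 3 in medium versus small and 0 in large versus medium follicles. With each library left out in turn, the counts ranged from 10 to 21, 5 to 19 and 0 to 9, and the loci called in all 3 comparisons from 0 to 8. TMM over all loci of both lists gave 26 in large versus small (23 lower, 3 higher), 23 in medium versus small (19 lower, 4 higher) and 15 in large versus medium follicles, total-count scaling gave 25 (19 lower, 6 higher), 23 (15 lower, 8 higher) and 15 in the same order, and TMM over all deposited loci gave 23, 20 and 15 (6.15%, 5.27% and 3.96% of all predicted loci were lower). Large versus medium follicles gave 0 when just these sizes were fitted and 10 by DESeq2. In the former 14 had an unadjusted p under 0.05, for which the share of all predicted loci is not given. Keeping 1 locus of each group of equal count, an alternative chosen after seeing the data, left 17, 8 and 5 called.

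The counts on the 31 loci came to 0.553%, 0.627% and 0.536% (small, medium, large) of those on all loci of 18 to 30 bases, a base that does not hold the 12 shorter members, and to 30.4%, 12.9% and 7.15% of all predicted loci. For the 18- to 24-base loci it was 0.141%, 0.0527% and 0.0242%, and without the most abundant locus 0.0876% in medium and 0.0332% in large follicles. The log2 ratio of the pair with bta-miR-2284w in medium follicles ranged from -0.21 to 0.052, the latter without medium 6.

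The large versus small log2 fold change turned positive at 7 loci that were not called. Under TMM over both lists and total-count scaling it was 0.39 and 0.94 on chromosome 26, 0.094 and 0.63 on chromosome 12, 0.44 and 0.97 at chr11:87082241-87082258, and 0.50 and 1.02 on chromosome 17. Under the total of the predicted loci as well, listed first, it was 0.38, 0.97 and 1.5 on chromosome 15, 0.20, 0.90 and 1.36 on chromosome 28, and 0.60, 1.25 and 1.78 at chr13:78811646-78811669. The last was also 0.036 under TMM over all deposited loci, 0.016 when fitted with them, 0.17 without small 1 and 0.11 without large 12, and ranged from -0.29 to 0.17 with each library left out. These follow from scaling to other loci or fewer libraries. No paired analysis was possible because the sizes share no replicate numbers. Depth limits the rare loci, which had under 10 counts in some large libraries.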
